A study of Mus musculus with 5 samples.

Results

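The levels of 10 neuropeptide genes were followed through every cell class of the newborn mouse hippocampus: Sst, Npy, Cck, Vip, Nts, Gal, Adcyap1, Grp, Tac1 and Penk. They were chosen by name, as 10 of the 32285 features measured, and all 10 were present in all 5 libraries. The tissue came from pups at postnatal day 1. Wild-type pups gave 3 libraries, numbered 1, 2 and 3, and pups with a knockout of Trem2, a receptor of microglia, gave 2 libraries, numbered 2 and 3. Each library pooled 2 pups. The sample descriptions give both libraries numbered 2 as males only and the others as a male and a female, whereas the field for sex names male and female throughout. The strain and the making of the Trem2 allele are not stated in the labels. The labels do not say whether libraries came from separate litters or days, so p-values measure the spread between these libraries, part of which may be technical.

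Neuropeptides are cut from larger precursor proteins, stored in dense-core vesicles and released to act on G-protein-coupled receptors, usually beside a fast transmitter such as GABA or glutamate. In the hippocampus the best known of them mark kinds of inhibitory interneuron. Somatostatin (Sst) and neuropeptide Y (Npy) are typical of interneurons born in the medial ganglionic eminence (MGE), and vasoactive intestinal peptide (Vip) and a form of cholecystokinin (Cck) of those born in the caudal ganglionic eminence (CGE). Other peptide genes are used by principal cells, and many change their cellular distribution between birth and adulthood.

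Single cells were counted by unique molecular identifiers (UMIs), each standing for 1 captured RNA molecule. Library totals ran from 60024793 to 91205882 UMIs, with a median of 6871 to 7688 per barcode, and 29184 cells were kept. Pairs of libraries shared 12 to 26 cell barcodes. Trem2 in microglia-like cells stood at 1318, 1414 and 877 CPM (UMIs of the gene scaled to 1000000 UMIs of the summed cells) in wild-type replicates 1, 2 and 3, and at 58.7 and 83.7 CPM in knockout replicates 2 and 3. Cells were clustered without the 10 peptide genes and named from other markers. "Like" marks such a rebuilt class. MGE-like interneurons (1174 cells) had 6 of 6 MGE markers in at least 10% of cells, CGE-like interneurons (708) 7 of 7, CA1-like pyramidal neurons (1424) 7 of 7, CA3-like pyramidal neurons (2922) 6 of 6, Cajal-Retzius-like cells (1205) 7 of 7 and dentate granule-like neurons (4179) 5 of 7. Such detection does not separate the pyramidal classes, since CA1-like cells also had 6 of 6 CA3 markers in at least 10% of cells. By level, 5 of 6 MGE, 5 of 6 CA3, 6 of 7 granule and all other markers were above those in other cells. A gate on each cell's own markers held 62.3% of CA3-like cells and 80.1% to 97.8% of the cells of the other classes. Of the cells so gated, 43.7% for granule-like, 48.2% for CA1-like, 63.7% for CA3-like, 64.9% for CGE-like and 68.3% for MGE-like lay in that class. For Cajal-Retzius-like cells it was 96.3%. The gate held 8430 granule-like and 2732 CA1-like cells, many more than the clusters. Excitatory clusters 1, 5 and 26 and inhibitory cluster I6 stayed without a field or lineage name. Inhibitory neurons made up 4.31%, 3.34% and 8.92% of wild-type cells, by library, against 7.39% and 12.2% of knockout cells. Wild-type replicate 2 stood apart within the MGE-like class, with 79 cells at a median of 3848 UMIs, against 6323 to 9661 in the other libraries.

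Each of the 10 genes was concentrated in a recognisable set of neurons. Of all UMIs of Sst, 92.5% lay in inhibitory neurons, as did 82.3% of those of Npy, 79.7% of those of Vip and 74.1% of those of Tac1. Excitatory neurons held 86.8% of the UMIs of Cck, 94.0% of Nts, 93.0% of Gal, 94.4% of Adcyap1 and 94.7% of Grp. Penk was the exception, with 83.7% in Cajal-Retzius-like cells. The genes also differed in how far their RNA was spread over cells: the 1% of cells with the most UMIs of a gene held 91.4% of all Sst and 88.9% of all Nts, against 26.9% of Cck and 16.9% of Grp.

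**Figure D1:**
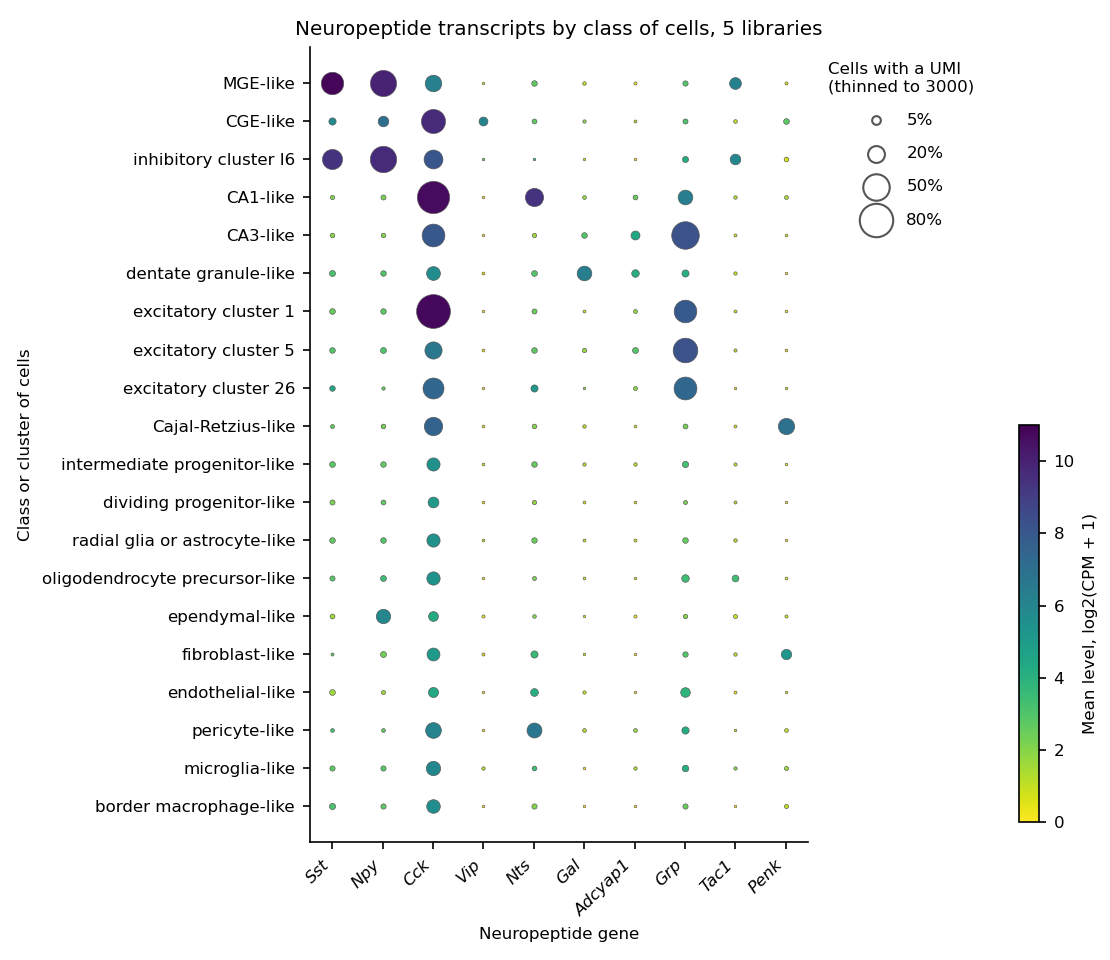
Level of the 10 neuropeptide genes (columns) in 20 cell classes or clusters (rows). Colour gives the mean log2(CPM + 1) over the 5 libraries, and circle area the share of cells with at least 1 UMI after each cell was thinned to 3000 UMIs. Sst, Npy and Tac1 are high in MGE-like cells, Cck and Nts in CA1-like cells, and Penk in Cajal-Retzius-like cells.

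Somatostatin, the inhibitory peptide that later marks dendrite-targeting interneurons, was the most abundant of the 10 in MGE-like cells. Its level there was 2403, 2113 and 1222 CPM in the wild-type libraries and 1604 and 1765 CPM in the knockout libraries, a mean of 1821 ± 456 CPM (SD, n = 5). The highest and lowest of these values were both from wild-type libraries. Sst was measured in a minority of the class: 35.7%, 27.8% and 32.5% of wild-type against 39.8% and 45.7% of knockout MGE-like cells held a UMI, with exact (Clopper-Pearson) 95% intervals from 18.4–39.1% in wild-type replicate 2 to 40.1–51.4% in knockout replicate 3. Those intervals cover counting error only. Within the class 232 cells held at least 10 Sst UMIs and 96.7% of the class's Sst, and 60 cells held at least 100. The sub-clusters differed widely, from 3256 CPM in cluster I0 and 2603 CPM in cluster I5 to 197 CPM in I3 and 55 CPM in I7. In cluster I5 88.0% of cells held a UMI and 65.8% at least 10. Inhibitory cluster I6, which carried MGE and CGE markers together, had 666 ± 662 CPM (SD, n = 5), from 66.4 to 1603 CPM. The 94 cells of the Meis2/Foxp2-type inhibitory-like class had a higher mean, 2966 ± 5023 CPM, but 4 cells held 98.7% of its Sst UMIs and no library's value there rested on more than 2 such cells.

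Neuropeptide Y, which dampens transmitter release in the adult hippocampus, followed Sst but lay in more of the MGE-like cells. It stood at 983, 1081 and 857 CPM in the wild-type libraries and 1049 and 929 CPM in the knockout libraries, a narrow range around a mean of 979.7 ± 90.4 CPM (SD, n = 5). In all 52.7% of the class held a UMI. Cluster I6 had 833 ± 496 CPM, and its 5 libraries ran from 232 to 1520 CPM, so it did not differ from the MGE-like class beyond its spread. CGE-like cells had 131 ± 80.1 CPM. The 94 Meis2/Foxp2-type cells had a higher mean of 3070.2 CPM, with 99.1% of their Npy in 5 cells. Sst and Npy were often high in the same MGE-like cells: 232 cells had at least 10 UMIs of Sst, 219 of Npy and 146 of both, which is 62.9% of the Sst-high and 66.7% of the Npy-high cells. Per library the share of Sst-high cells that were also Npy-high was 71.9%, 61.5% and 68.3% in wild type and 56.1% and 59.0% in knockout. The knockout shares lay below the wild-type shares, on 41 and 83 Sst-high cells against 13 in wild-type replicate 2, and were not tested. The reverse share, of Npy-high cells that were also Sst-high, overlapped. It was 63.9%, 72.7% and 67.2% in wild type and 51.1% and 77.8% in knockout. Sst and Npy were not interchangeable: 86 cells were high in Sst alone and 73 in Npy alone.

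Tac1, the precursor of substance P, was a minor peptide of the same class at 107, 9.97 and 102 CPM in the wild-type libraries and 68.8 and 83.2 CPM in the knockout libraries. The low value of wild-type replicate 2 rests on 6 UMIs in its 79 shallow cells. Cluster I3, low in Sst, held the most Tac1 (268 CPM). Cluster I6 had 57.4 CPM.

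Vasoactive intestinal peptide, in the adult a marker of interneurons that inhibit other interneurons, was scarce at this age. All kept cells together gave 478 Vip UMIs, of which 77.8% lay in CGE-like cells. The level in that class was 72.9, 25.2 and 67.4 CPM in the wild-type libraries and 118 and 50.5 CPM in the knockout libraries, the highest and the lowest value thus falling in different genotypes with the rest between them. Only 15 CGE-like cells held at least 10 Vip UMIs. Clusters I2 (187 CPM) and I9 (90.4 CPM) carried most of it. Vip in MGE-like, CA1-like, CA3-like, granule-like and Cajal-Retzius-like cells was too low to test.

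Cholecystokinin, the most abundant of the 10 with 112129 UMIs, was found both in pyramidal neurons and in CGE-like interneurons. CA1-like neurons had 1701, 1235 and 1950 CPM in the wild-type libraries and 1704 and 1514 CPM in the knockout libraries, a mean of 1621 ± 266 CPM (SD, n = 5). Excitatory cluster 1 had 1727 ± 581 CPM, which did not differ from CA1-like cells beyond its spread, and its lowest library was again wild-type replicate 2 (783 CPM). CGE-like cells followed at 836 ± 186 CPM, then CA3-like cells at 255.8 ± 35.1 CPM and Cajal-Retzius-like cells at 182.5 CPM. MGE-like cells (75.5 CPM) and granule-like cells (48.8 CPM) were lower still. Within CGE-like cells 113 of 708 held at least 10 Cck UMIs, and 2 of the 15 Vip-high cells were among them. Clusters I9 (1291 CPM) and I8 (975 CPM) had the highest interneuron levels. A single inhibitory neuron was high in both Sst and Cck.

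Neurotensin (Nts), a peptide best known for its action on dopamine neurons, was all but restricted to CA1-like cells, which held 90.3% of its UMIs. The level varied widely between libraries: 1050, 219 and 504 CPM in wild type and 971 and 576 CPM in knockout, 664 ± 344 CPM over all 5 libraries. It was carried by a subset of cells: 33.4% of CA1-like cells held a UMI, 284 of 1424 at least 10, and 45 at least 100. Nts and Cck divided the CA1-like cells unevenly. Of the 284 Nts-high cells 36.6% were also Cck-high, against 64.7% of the other CA1-like cells, both at 10 UMIs. The order was the same in each library: 42.3% against 58.3%, 0% against 73.9% and 36.5% against 66.7% in wild type, and 38.8% against 66.1% and 35.6% against 62.6% in knockout. The Nts-high cells were the deeper ones, with a median of 21694 UMIs against 17459, so they had the lower Cck share at the higher depth. In wild-type replicate 2 the share of 0% rests on 14 Nts-high cells.

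Gastrin-releasing peptide (Grp), a bombesin-like peptide, was spread over many pyramidal neurons, with a UMI in 45.2% of excitatory neurons against 57.8% for Cck. CA3-like cells had 294, 345 and 265 CPM in the wild-type libraries and 314 and 292 CPM in the knockout libraries, and 83.7% of them held a UMI. The mean of 302 ± 29.7 CPM did not differ beyond the spread from that of excitatory cluster 5 (297 ± 47.5 CPM) or cluster 1 (241 ± 91.8 CPM). Cluster 26 had 168 ± 23.4 CPM and CA1-like cells 79.9 ± 20.2 CPM. Within the CA3-like cells cluster 3 reached 459 CPM and cluster 11 177 CPM. Counts per cell were modest, at a median of 5 to 6 UMIs in positive cells of each library. Grp lies on the plus strand of chromosome 18 from 65872820 to 65886596 (GENCODE M21, GRCm38), where an annotated gene on the other strand, AC152076.4, overlaps it. Whether the counting used strand is not stated in the labels.

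Adcyap1, which encodes the peptide PACAP, was present at low levels in CA3-like and granule-like cells, with a median of 1 UMI in the positive cells of both classes in every library. CA3-like cells had 19.9, 17.3 and 18.2 CPM in the wild-type libraries and 26.9 and 23.1 CPM in the knockout libraries. Granule-like cells had 10.8, 14.9 and 16.8 CPM in wild type and 20.9 and 19.9 CPM in knockout. In both classes the knockout libraries lay above all wild-type libraries, and the tests of that difference are given with the genotype comparison. The means of the classes, 21.1 ± 3.93 and 16.7 ± 4.09 CPM (SD, n = 5), overlapped within their spread. Both classes were made of 2 clusters that differed in Adcyap1: 26.4 CPM in cluster 11 and 14.7 CPM in cluster 3 of the CA3-like cells, and 25.9 CPM in cluster 4 and 8.50 CPM in cluster 0 of the granule-like cells.

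Galanin (Gal), a peptide better known from brain stem and hypothalamus, was a gene of granule-like neurons, which held 77.9% of its UMIs. Its level there was 104, 56.9 and 80.1 CPM in the wild-type libraries and 86.3 and 76.6 CPM in the knockout libraries, the knockout values falling inside the wild-type range. A UMI was found in 23.6% of granule-like cells, with a median of 2 UMIs in positive cells of every library. CA3-like cells had 7.01 ± 1.66 CPM, below the lowest granule-like library.

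Proenkephalin (Penk), the precursor of the opioid enkephalins, marked Cajal-Retzius-like cells, the early-born cells that secrete reelin. The level was 84.5, 114 and 153 CPM in the wild-type libraries and 120 and 132 CPM in the knockout libraries, and 33.8% of these cells held a UMI. The means of the other neuron classes were at or below 5.93 CPM. An annotated gene on the other strand, A830012C17Rik, overlaps Penk.

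**Figure D2:**
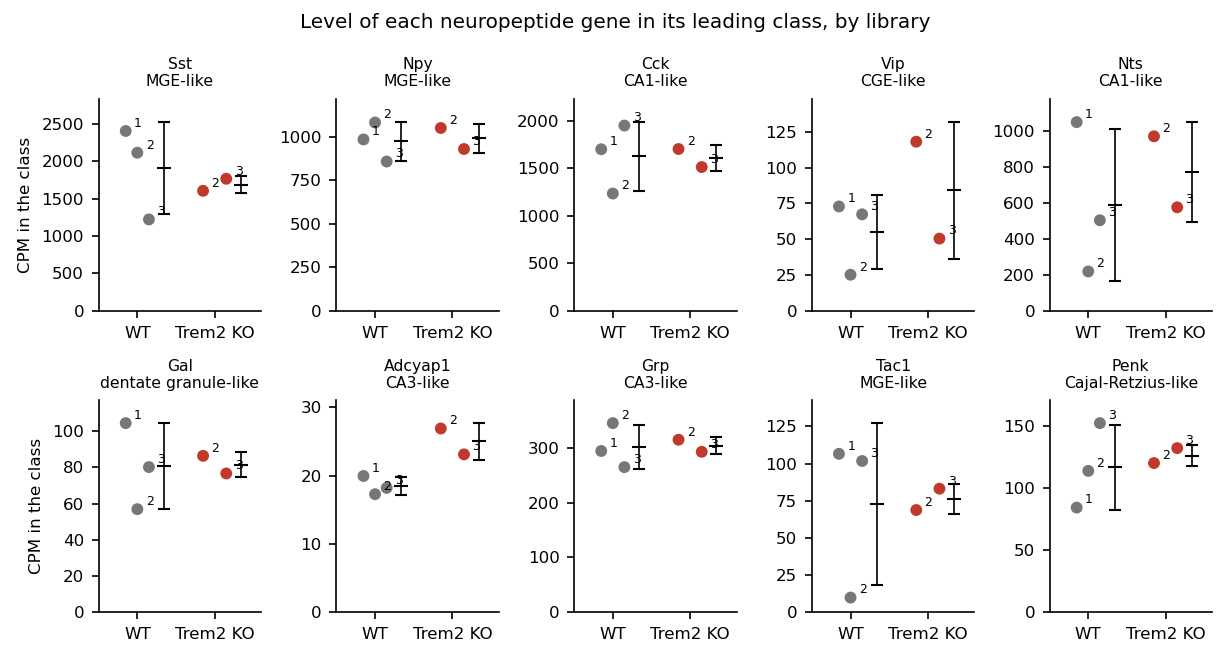
Level (CPM of summed UMIs, linear axis from 0) of each gene in the tested class where it was highest. Points are libraries with their replicate numbers, and the mean ± SD stands beside each genotype. Adcyap1 in CA3-like cells is the 1 panel in which both knockout libraries lie above all 3 wild-type libraries.

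Positions of the genes, all protein coding, are from GENCODE M21 on the deposited build mm10 (GRCm38). Sst lies on the minus strand of chromosome 16 from 23889573 to 23890958, Npy on the plus strand of chromosome 6 from 49822710 to 49829507, and Tac1 on the same chromosome and strand from 7554879 to 7565834. Cck lies on the minus strand of chromosome 9 from 121489824 to 121495694. Chromosome 10 holds Vip, on the plus strand from 5639218 to 5647617, and Nts, on the minus strand from 102481756 to 102490486. Gal lies on the minus strand of chromosome 19 from 3409915 to 3414544 and Adcyap1 on the plus strand of chromosome 17 from 93199017 to 93206537. Penk lies on the minus strand of chromosome 4 from 4133531 to 4138819. The 3′ kit reads only the end of each transcript, so the counts do not separate the isoforms of a gene.

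Sst is the textbook gene of the cyclic AMP response element, TGACGTCA, and Sst and Npy had the most alike levels of any pair of the 10, so the letters before their starts were read beside those of the other genes. RefSeq windows (GRCm38.p6, 250 bases before the start) were found for 8 of the 10. The 8 letters TGACGTCA, which read the same on both strands, occur in 508 of 32851 such windows (1.546%), and the shorter TGACGTC on either strand, which every full match contains, in 914 (2.782%). Sst holds the full motif from 48 to 41 bases before its start. Vip holds the 7 letters from 79 to 73 bases and Adcyap1 from 91 to 85 bases before the start. Npy, Cck, Nts, Gal and Tac1 hold neither. The stretches below show the motif in capitals in the 3 genes that have it, at chr16:23890874-23890903 (minus strand), chr10:5639128-5639157 (plus) and chr17:93198915-93198944 (plus), and the last 120 bases before the start of Npy, chr6:49822590-49822709 (plus), which hold no match although Npy shares the Sst pattern.
Sst: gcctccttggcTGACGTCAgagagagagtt
Vip: gatcactactgTGACGTCtttcggggagcc
Adcyap1: gactaggatgcTGACGTCttttactgatac
Npy: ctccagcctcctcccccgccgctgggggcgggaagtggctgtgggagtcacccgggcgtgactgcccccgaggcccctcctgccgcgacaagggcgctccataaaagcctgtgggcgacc
The 3 genes with a match peak in different classes, MGE-like, CGE-like and CA3-like. A match is a run of letters, and no binding was measured here.

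Likeness of pattern was taken as Pearson's r of log2(CPM + 1) over 32 sums, each of 1 named neuron class in 1 library. Points of 1 library share their depth, and no test was made. Npy (r = 0.948), Nxph1 (0.948) and Cbln4 (0.943) were most like Sst. For Npy they were Sp9 (0.955), Sst and Cacng3 (0.939), for Tac1 Pappa (0.8996), and for Cck Slc6a15 (0.816), the weakest of the leading partners named here. Pou3f1 (0.948), Dcn (0.920) and Avpr1a (0.894) were most like Nts, where Pou3f1 is one of the markers used to name CA1-like cells. Neurod6 (0.936) was most like Grp, Fgfr1 (0.931) most like Adcyap1, Prkch (0.899) most like Gal and Tprgl (0.947) most like Penk. Nxph1 and Neurod6 are also naming markers, of MGE and of excitatory neurons, so their likeness is not independent of the class names.

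Free RNA from broken cells gives UMIs in droplets that do not express a gene, so the same shares were read in 8 non-neuronal classes, without thinning. Cck was spread the most: a median of 28.7% of cells in these classes held a Cck UMI, from 25.5% to 36.9%, against 91.1% in CA1-like cells. In the radial glia or astrocyte-like class (4063 cells, median 8200 UMIs) this came to 0.362 Cck UMIs per cell and never more than 10. Granule-like cells (27.7%) were at that share. At equal depth, with each cell thinned to 3000 UMIs, Cck was found in 6.52% to 17.3% of cells of the non-neuronal classes, in 24.1% of Cajal-Retzius-like and in 13.2% of granule-like cells. In granule-like cells Cck is thus not told apart from the background, as is also the case for Npy in CA3-like cells (3.06 CPM, against 1.82 to 69.2 CPM in the non-neuronal classes) and for Grp in MGE-like cells (7.004 CPM, against 3.50 to 17.4 CPM). For Sst the median over the non-neuronal classes was 4.62% (3.48–6.06%), against 37.6% in MGE-like cells. Vip (0.346%), Gal (0.370%), Adcyap1 (0.274%) and Penk (0.612%) had medians under 1% over the 8 classes. In CGE-like cells 4.85% to 8.93% per library held a Sst UMI, at a lower median depth of 3986 to 6811 UMIs.

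The level of each gene in vascular and immune cells was also taken as a percentage of its level over the whole library. Sst stood at 5.76% ± 2.54 (SD, n = 5), Npy at 7.26% ± 4.93, Cck at 9.84% ± 6.49 and Penk at 5.96% ± 7.07. Of 10 neuronal reference genes, 8 lay between 7.03% (Syt1) and 10.5% (Snap25), while Gad1 stood at 14.4% ± 13.96 and Meg3 at 25.7% ± 7.04. Wild-type replicate 2 was highest for Cck (21.2%) and for Stmn2 (19.1%). Nts had the highest mean of the 10 peptide genes, 38.5% ± 18.9. In wild-type replicate 1 (18.7%) and knockout replicate 2 (25.7%) it was close to Meg3 (20.6% and 25.1%). In wild-type replicates 2 and 3 it was higher, 67.7% against 37.4% and 37.3% against 25.6%. In knockout replicate 3 it was 43.1% against 19.9%. The vascular and immune cells include pericyte-like and endothelial-like cells, whose Nts is given below. Grp stood at 14.9% ± 4.79, a mean close to that of Gad1, but Gad1 reached 39.3% in wild-type replicate 2. Without that library the means were 13.3% for Grp and 8.23% for Gad1. Vip (24.8% ± 20.2) and Tac1 (22.2% ± 34.9) rest on few UMIs, 1 a library for Vip, and Gal stood at 7.28% ± 6.65 and Adcyap1 at 4.15% ± 3.01.

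**Figure D3:**
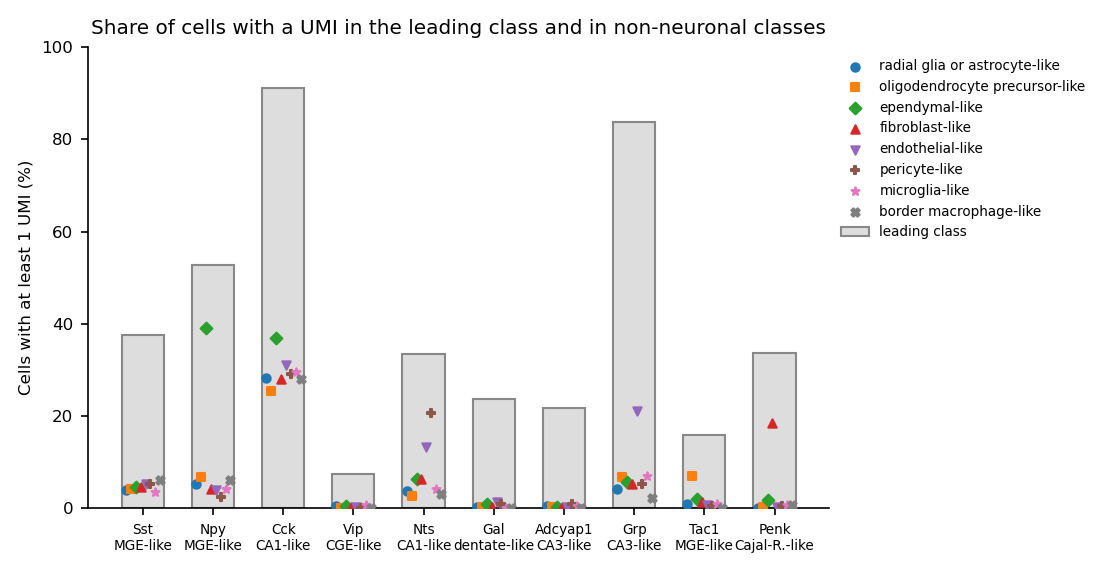
Share of cells (percent, unthinned) with at least 1 UMI of each gene. Bars show the leading neuron class over all libraries, and symbols the 8 non-neuronal classes. Cck lies between 25.5% and 36.9% in all 8 non-neuronal classes, and single symbols stand off the rest for Npy (ependymal-like), Grp (endothelial-like), Penk (fibroblast-like) and Tac1 (oligodendrocyte precursor-like). For Nts pericyte-like cells lie highest, and endothelial-like cells (13.3%) also lie above the median of the 8 classes (5.29%).

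For 5 of the genes 1 non-neuronal class lay well above the median of the 8. Npy was found in 38.3%, 30.3% and 44.3% of wild-type against 23.3% and 45.9% of knockout ependymal-like cells, with up to 81 UMIs in a cell and 17 cells with at least 10. The median share over the 8 classes was 4.72%. Nts was found in 18.2%, 0% and 23.4% of wild-type against 31.6% and 20.5% of knockout pericyte-like cells, the 0% being 0 of 19 cells, with an exact 95% upper limit of 17.6%. Its level in that class, 103 ± 59.8 CPM, was second only to CA1-like cells. Endothelial-like cells also held Nts, in 13.3% of cells against a median of 5.29% over the 8 classes, with up to 16 UMIs in a cell. Penk was found in 15%, 17.7% and 17.5% of wild-type against 20% and 27.9% of knockout fibroblast-like cells, with at most 6 UMIs in a cell. Grp was found in 14.9% to 28.8% of endothelial-like cells per library, and Tac1 in 5.61% to 8.50% of oligodendrocyte precursor-like cells. By level, Grp in endothelial-like cells (13.8 CPM) was below the highest non-neuronal class (17.4 CPM). Ependymal-like and endothelial-like cells were deep, with library medians of 17636 to 24267 and 12078 to 22517 UMIs. At equal depth, 3000 UMIs a cell, the share was 14.5% for Npy in ependymal-like cells, against a median of 1.66% over the 8 classes. It was 15.6% for Nts in pericyte-like cells (median 1.61%), 7.30% for Penk in fibroblast-like cells (0.400%), 6.18% for Grp in endothelial-like cells (2.24%) and 2.80% for Tac1 in oligodendrocyte precursor-like cells (0.392%). Each of these classes thus kept the highest share for its gene at equal depth. Doublets with a neuron and free RNA were not measured one by one in these cells, and their part in these values was not tested.

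The genotype comparison asks whether loss of Trem2 changed any of these genes in the neurons that make them. The summed UMIs of each class were compared between libraries with edgeR's quasi-likelihood test, with Benjamini-Hochberg adjustment over all genes of the class and a threshold of 0.05. None of the 10 genes passed in its leading class with edgeR or with DESeq2, and 1, Adcyap1, had an unadjusted p under 0.05. In MGE-like cells, where 0.0187% of all 10719 genes tested were called, Sst had a log2 fold change (knockout against wild type) of -0.14 (SE 0.178, edgeR adjusted p = 0.949), Npy of 0.07 (SE 0.111, edgeR adjusted p = 0.961) and Tac1 of -0.11 (SE 0.313, edgeR adjusted p = 0.984). Sst was 1912 ± 615 CPM in wild type (SD, n = 3) and 1684 ± 114 CPM in knockout (n = 2), and Npy 974 ± 112 and 989 ± 85.3 CPM. All 3 genes overlapped between genotypes.

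Among the pyramidal and granule cells, 0% of the 12088 genes tested in CA1-like, the 13386 in CA3-like and the 12421 in granule-like cells were called by edgeR. An unadjusted p under 0.05 was reached by 368, 422 and 688 genes, and DESeq2 called 2, 2 and 6. Cck in CA1-like cells had a log2 fold change of 0.01 (SE 0.145). Its mean CPM was 1629 ± 363 in wild type (SD, n = 3) and 1609 ± 134 in knockout (n = 2), so the fit and the means differ in sign, both within the error. Nts in CA1-like cells differed by 0.41 (SE 0.420), with the knockout values inside the wild-type range. Grp in CA3-like cells differed by 0.03 (SE 0.119) and Gal in granule-like cells by 0.03 (SE 0.198). Vip in CGE-like cells had a log2 fold change of 0.39 (SE 0.274) and Penk in Cajal-Retzius-like cells of 0.13 (SE 0.176). The edgeR adjusted p of each of these was 0.998 or more. Standard errors of 0.111 to 0.145 for Npy, Grp, Cck and Adcyap1 are small beside a doubling (a log2 fold change of 1), whereas those of Nts and Tac1 are 0.420 and 0.313.

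Adcyap1 in CA3-like cells was the 1 leading-class pair whose genotypes did not overlap, 18.5 ± 1.35 CPM in wild type (SD, n = 3) and 25 ± 2.68 CPM in knockout (n = 2), with a log2 fold change of 0.46 (SE 0.143). Its unadjusted p was 0.0069 and its edgeR adjusted p was 0.9996, so it was not called. In the same class 7.13% of all genes had both knockout libraries above all wild-type libraries. With cells limited to 5% mitochondrial UMIs the sign reversed (-0.50). Granule-like cells gave a log2 fold change of 0.53 (SE 0.195, edgeR adjusted p = 0.875), also without overlap, where 9.1% of all genes lay above in the same way. The clusters richer in Adcyap1 took different shares of the libraries. Cluster 4 was 27.96%, 31.6% and 45.7% of granule-like cells in wild type and 43.9% and 59.8% in knockout, and cluster 11 was 32.7%, 30.4% and 45.1% of CA3-like cells in wild type and 36.9% and 40.7% in knockout. The part of this mix in the differences was not tested.

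**Figure D4:**
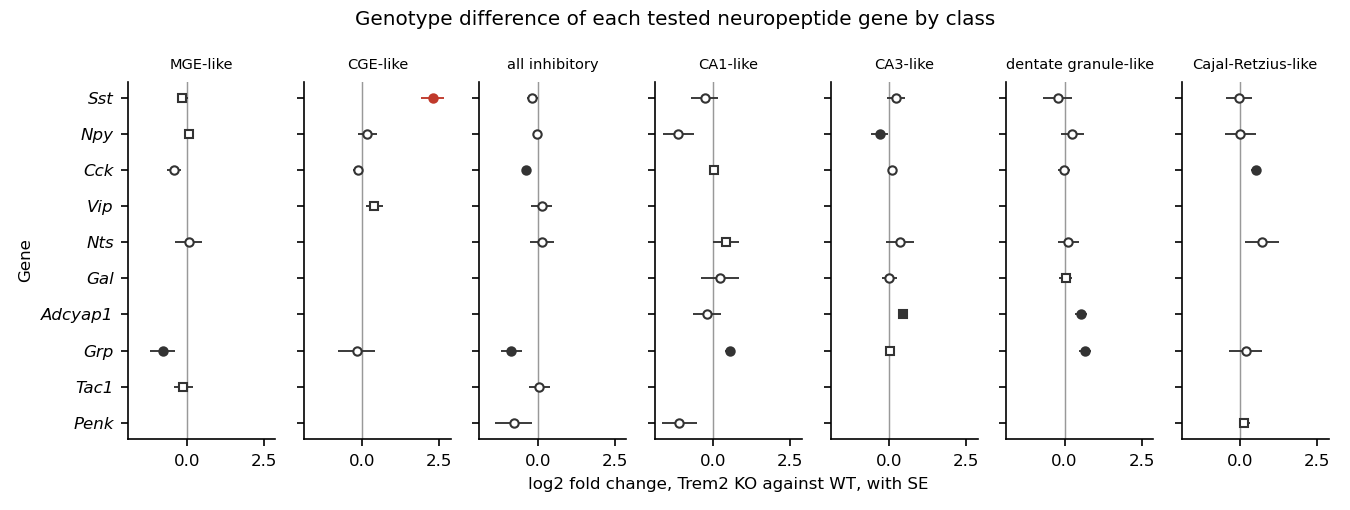
Log2 fold change (knockout against wild type, edgeR) ± SE of each gene in each tested class. Squares mark the leading class, filled symbols the pairs whose genotypes do not overlap, and red the called pair. Sst in CGE-like cells (2.28) is the 1 red symbol.

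The 1 call among 47 tests of these genes was Sst in CGE-like interneurons, a class in which it is scarce. Sst stood at 6.5, 14.02 and 34.8 CPM in the wild-type libraries and 43.4 and 173 CPM in the knockout libraries, with a log2 fold change of 2.28 (SE 0.376, edgeR adjusted p = 0.00464). In this class 0.0562% of the 8903 genes tested were called. The counts behind it are small and uneven: 5, 5 and 65 UMIs in wild type and 39 and 257 in knockout. Cells with at least 10 Sst UMIs numbered 0, 0 and 2 in wild type and 1 and 3 in knockout, and these 6 cells held 85.7% of the class's Sst. A single cell gave 171 of the 257 UMIs in knockout replicate 3 (66.5%), and another 30 of the 39 in knockout replicate 2 (76.9%). The level made up by the other cells was 6.5, 14.02 and 8.24 CPM in wild type and 10.1 and 13.03 CPM in knockout, ranges that overlap. The share of cells with any Sst UMI also overlapped: 4.85%, 8.93% and 6.32% in wild type and 8.33% and 7.95% in knockout.

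**Figure D5:**
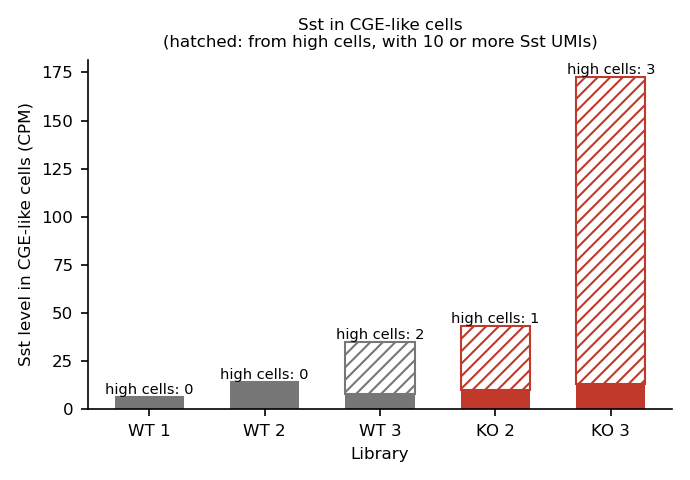
Sst level (CPM of summed UMIs) in CGE-like cells of each library. The hatched part of each bar comes from cells with at least 10 Sst UMIs, whose number stands above the bar. Without the hatched part the 5 libraries lie between 6.5 and 14.02 CPM.

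The other genes of the 6 cells with at least 10 Sst UMIs were read for signs of either lineage. Lhx6, the defining MGE factor, had 0 UMIs in all 6, and Adarb2, a CGE marker, had 0 in the 4 knockout cells and 6 and 15 in the wild-type cells. In 5 cells the 7 CGE markers together had more UMIs (12 to 77) than the 6 MGE markers (3 to 11). These cells come from clusters named CGE-like with the same lists, so this excess cannot place a cell in a lineage. The lists also differ in scale: the CGE list summed to 4328–5148 CPM in CGE-like cells. The sixth cell, of 1956 UMIs in knockout replicate 3, had 0 UMIs of both lists, so its markers do not separate the lineages. Of the 6, 4 lay in cluster I8, which was 16.5%, 16.1% and 15.8% of wild-type against 20% and 31.8% of knockout CGE-like cells, and the other 2 in cluster I2. Both I2 cells, of knockout replicate 3, held Npy (20 and 6 UMIs), and the 4 I8 cells held none. The MGE marker list summed to 279–350 CPM in wild-type and 267–358 CPM in knockout CGE-like cells, against 1547–1720 CPM in MGE-like cells, with 1 marker at 0 in wild-type replicate 2. The call was lost with DESeq2 (log2 fold change 2.52, DESeq2 adjusted p = 0.9996), without wild-type replicate 1 (1.93, edgeR adjusted p = 0.135), without wild-type replicate 2 (2.19, edgeR adjusted p = 0.123), without knockout replicate 3 (0.92, edgeR adjusted p = 0.997) and with classes gated on each cell's own markers (0.59, edgeR adjusted p = 0.925). The sign held in all 12 alternatives, with adjusted p from 6.705e-20 to 0.9996.

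A further 9 pairs of gene and class had genotypes that did not overlap, none of them with an edgeR adjusted p past the threshold. Together with Sst in CGE-like cells they make 10 of 47 pairs (21.28%), 6 above and 4 below. Over all genes tested the share without overlap was 20.7% in MGE-like, 18% in CGE-like, 20.6% in all inhibitory, 17.9% in CA1-like, 18.4% in CA3-like, 20.8% in granule-like and 18.9% in Cajal-Retzius-like cells, so the share among the peptide genes was near the background. By direction, 7.13% to 9.11% of genes lay above and 8.88% to 12.5% below, over the 7 classes. Grp gave 4 of the pairs. It was lower in knockout MGE-like cells (12.6, 6.65 and 6.34 CPM against 4.68 and 4.73, log2 fold change -0.79) and in all inhibitory neurons together (10.3, 8.96 and 8.43 CPM against 6.64 and 3.72, -0.86), where 12.5% and 12.1% of all genes lay below in the same way, at levels within the 3.50 to 17.4 CPM of the non-neuronal classes. It was higher in CA1-like cells (71.3, 66.6 and 67.3 CPM against 79.4 and 115, 0.53, where 7.42% of all genes lay above) and in granule-like cells (10.95, 15.2 and 12.9 CPM against 17.5 and 23.1, 0.67, where 9.1% lay above). The wild-type granule-like values also lay within the range of the non-neuronal classes. Over all kept cells Grp stood at 61.1, 88.2 and 80.7 CPM in wild type and 113 and 105 CPM in knockout. The part of that library-wide level in the class values was not tested. Granule-like cluster 4, whose shares are given with Adcyap1, had 24 CPM of Grp and cluster 0 had 8.44 CPM, and the part of this mix of clusters was not tested here either. The MGE-like value reversed its sign, to 0.03, when doublets were kept. Grp became a call in CA1-like cells with no filter on low counts (edgeR adjusted p = 0.0303) and in granule-like cells with the replicate number as a block (edgeR adjusted p = 0.0345), in each case the lowest of 12 alternatives.

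Cck gave 2 of the pairs, in opposite directions. In all inhibitory neurons together it stood at 378, 396 and 285 CPM in wild type and 269 and 252 CPM in knockout (log2 fold change -0.39, edgeR adjusted p = 0.853), but the libraries differed in their mix of inhibitory cells. The CGE-like class, where interneuron Cck was highest, gave 103 of 268, 56 of 149 and 253 of 724 inhibitory cells in wild type and 120 of 386 and 176 of 632 in knockout, and the part of this mix in the difference was not tested. Within the CGE-like class Cck overlapped between genotypes, with a log2 fold change of -0.13 (SE 0.161). In all inhibitory neurons the difference was 0.01 with classes gated on each cell's own markers. In Cajal-Retzius-like cells Cck stood at 131, 137 and 203 CPM in wild type and 207 and 234 CPM in knockout (log2 fold change 0.52, SE 0.155, edgeR adjusted p = 0.9997), where 7.77% of all genes lay above. Of the 11288 genes tested in that class 0.00886% were called. Cck was called there without wild-type replicate 3 or with no filter on low counts, with adjusted p down to 0.0287. The remaining pairs were Npy in CA3-like cells (-0.30), at the background level, and Adcyap1 in CA3-like and granule-like cells, given above.

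The share of cells with a UMI was compared at equal depth, each cell thinned to 3000 UMIs and shallower cells left out. With 3 libraries against 2 the smallest two-sided exact permutation p is 0.1, so no difference in a share could be called. Shares were compared for these genes only, so no rate over all genes stands beside a lack of overlap. The share of MGE-like cells with a Sst UMI was 29.2%, 34.9% and 32.1% in wild type and 36.2% and 43.0% in knockout, without overlap, a difference of 7.53 percentage points (exact permutation p = 0.1). Counting cells with at least 2 UMIs gave 2.78 points with overlap (exact permutation p = 0.6). Cluster I0, high in Sst, was 23.8%, 21.5% and 24.1% of MGE-like cells in wild type and 27.3% and 27.6% in knockout. Cluster I5, also high in Sst, was 18.9%, 12.7% and 10.3% against 16.5% and 21.3%, with overlap. The part of this mix in the Sst share was not tested. Npy in MGE-like cells was 47.5%, 46.5% and 48.9% against 57.1% and 44.2%. Nts in CA1-like cells was 28.4%, 16.3% and 18.5% against 34.3% and 19.7%, and Cck there 68.9%, 79.8% and 79.7% against 70.5% and 72.5%. Adcyap1 in CA3-like cells was 3.92%, 4.66% and 5.91% against 5.87% and 5.29%, with overlap, whereas without thinning it was 19.8%, 19.2% and 20.5% against 26.1% and 22.1%, without overlap (exact permutation p = 0.1).

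Receptors, processing enzymes and other peptides were read from lists in all inhibitory neurons together, where 0% of 11420 genes tested were called by edgeR, 592 had an unadjusted p under 0.05 and DESeq2 called 2. Of 27 receptor genes for these peptides 8 were expressed enough to test, 3 with a higher and 5 with a lower value in knockout, at a median log2 fold change of -0.10. The smallest p was that of Sstr2, a somatostatin receptor, at 8.23, 5.97 and 8.43 CPM in wild type and 4.43 and 2.37 CPM in knockout (log2 fold change -1.29, SE 0.374, edgeR adjusted p = 0.764). Npy1r, a neuropeptide Y receptor (-0.41), Adcyap1r1, the PACAP receptor (0.26), and Sstr1, another somatostatin receptor (0.26), overlapped between genotypes. All 17 genes of prohormone processing and dense-core vesicles were tested, 5 higher and 12 lower, with a median of -0.07. Scg2 and Chga, granins of the vesicle core, differed by -0.15 and -0.14, Ptprn, a dense-core vesicle protein, by -0.33 and Pcsk1n, an inhibitor of a prohormone convertase, by 0.10. Of 29 other peptide genes 10 were tested, 4 higher and 6 lower, with a median of -0.04. Rln1, a relaxin gene, had the smallest unadjusted p (0.0177) and was higher in both knockout libraries (log2 fold change 0.98, edgeR adjusted p = 0.916). Cort, the somatostatin relative cortistatin (-0.49), Crh, corticotropin-releasing hormone (-0.28), and Crhbp, its binding protein (-0.72), overlapped between genotypes. The median over all genes tested was -0.0013, with 49.7% higher. No gene of the 3 lists was called by edgeR in any of the 7 classes, and in inhibitory neurons 1 receptor and 1 other peptide gene had an unadjusted p under 0.05.

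Calls were also made among other genes in these classes. In MGE-like cells Calb2 (log2 fold change -1.82) and Neurod1 (-2.01) were lower in knockout. Their wild-type levels there were 49.8 to 56.1 and 22.7 to 38.2 CPM. Both are among the 10 genes most raised in granule-like cluster 0, and Calb2 is a granule marker used for naming. With doublets kept, or with the gate on each cell's markers, 0 genes were called in MGE-like cells. The part of free RNA or doublets in these calls was not tested. In CGE-like cells Meis2 (-1.15), Ccnd2 (-1.36), Id4 (-1.07) and Pou3f4 (-1.67) were lower. Cluster I4 was 37.9%, 28.6% and 30.0% of CGE-like cells in wild type and 20.8% and 17.05% in knockout, and the part of this mix in the CGE-like calls, that of Sst included, was not tested. In Cajal-Retzius-like cells C1ql1 (0.97) was higher.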

How the data were processed

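Dissociated hippocampal cells were sequenced in 5 droplet libraries of 10x 3′ v3.1 chemistry. The deposited values are raw UMI counts per gene and barcode, made by the authors with Cell Ranger 6.1 on mm10, per the submitters' processing notes. The counting options are not given in the sources used here. Of 40345 barcodes, cells with at least 500 genes, 1000 UMIs and at most 15% mitochondrial UMIs were kept. Scrublet (scanpy 1.11.5) marked 2.34% and 4.64% of wild-type replicates 1 and 3. Elsewhere it marked under 0.5%, and the highest-scoring cells were removed at 0.8% per 1000 barcodes instead. Clustering used 2000 variable genes without the 10 members, 30 principal components, 15 neighbours and leidenalg 0.10.2 at a resolution of 1. In all, 1968 cells stayed without a class.

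For each class, edgeR 4.0.16 (quasi-likelihood, TMM, filterByExpr, genotype only) was run on the summed counts of the 5 libraries, in the 7 classes where no library had under 20 cells. DESeq2 1.42.0, other factors, no filter, a replicate block, each library left out, doublets kept, a 5% mitochondrial limit and a gate on each cell's own markers were alternatives. Pooled excitatory neurons were not tested because clusters 1 and 5 carried markers of several fields. Inhibitory cluster I6 was kept outside MGE-like cells, and an alternative chosen after seeing the data put it inside. On simulated data the fit called 70% of genes changed 2-fold and 97% of those changed 4-fold in MGE-like cells (10719 genes), and 74% and 96% in CA1-like cells (12088 genes). At each fold 100 genes were changed, and 13 unchanged genes in MGE-like and 23 in CA1-like cells were also called. The changed genes were drawn above a lowest mean count, so these rates do not cover the scarcest genes. UMIs of a class rest on few molecules for the scarce genes, so intervals cover counting error only.

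The genes named are the 10 members in every class, up to 3 other genes by smallest p in a class with calls, up to 4 genes of each pathway list by smallest p in inhibitory neurons, and the 3 genes most alike in pattern. Sst in CGE-like cells is both a member and a call, and Meis2, Ccnd2, Id4 and Pou3f4 are given as all other calls of that class, beyond the rule. Members and lists were chosen with earlier results of these data known.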

Additional observations from a re-analysis of the deposited data

Results flagged for a closer look

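For 2 of the genes every knockout library lay on one side of the wild-type libraries in some classes and on the other side in others. Grp was lower in knockout MGE-like cells (log2 fold change -0.79) and in all inhibitory neurons together (-0.86), and higher in CA1-like (0.53) and dentate granule-like cells (0.67). Cck was lower in all inhibitory neurons together (-0.39) and higher in Cajal-Retzius-like cells (0.52). None of these 6 values passed edgeR's adjusted threshold, the MGE-like cells are part of the inhibitory sum, and the difference between the classes was not tested. At 4.68 to 12.6 CPM, Grp in MGE-like cells lay within the 3.50 to 17.4 CPM of the non-neuronal classes. So did its wild-type values in granule-like cells, 10.95 to 15.2 CPM.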

How the results depend on the processing

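The counts of called genes moved more than any other result. They were 2 in MGE-like, 5 in CGE-like and 1 in Cajal-Retzius-like cells and 0 in all inhibitory, CA1-like, CA3-like and granule-like cells. In the order MGE-like, CGE-like, all inhibitory, CA1-like, CA3-like and granule-like, DESeq2 called 4, 1, 2, 2, 2 and 6 genes. With no filter on low counts the calls were 43, 13, 53, 32, 27 and 113, and 18 in Cajal-Retzius-like cells. With doublets kept they were 0 in MGE-like, 2 in all inhibitory, 1 in CA3-like, 1 in granule-like and 3 in Cajal-Retzius-like cells. The 5% mitochondrial limit gave 2 in CGE-like, 2 in all inhibitory and 0 in Cajal-Retzius-like cells, and the gate on each cell's markers 0 in MGE-like, 0 in CGE-like, 1 in CA3-like and 0 in Cajal-Retzius-like cells. Leaving out each library gave 3 to 7 in MGE-like, 0 to 14 in CGE-like, 0 to 27 in all inhibitory, 0 to 6 in CA1-like, 0 to 20 in granule-like and 0 to 5 in Cajal-Retzius-like cells. The cause was not tested.

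The titles share replicate numbers 2 and 3, which gives 2 pairs. Same-numbered libraries deviated together from their genotype means with r from 0.121 to 0.413. The 2 knockout libraries deviate from their mean by equal and opposite amounts, so the 2 values of a class are not independent. The labels do not say that a number marks a shared litter or day, and the sample descriptions give both libraries numbered 2 as males only. With the replicate block the calls were 50, 18, 74, 8, 66 and 331, and 28 in Cajal-Retzius-like cells. The replicate block gave log2 fold changes of 0.12 for Sst and 0.26 for Tac1 in MGE-like cells, 1.123 for Nts in CA1-like cells, 0.49 for Adcyap1 in CA3-like cells and 2.24 for Sst in CGE-like cells, and changed no call of a member in its leading class.

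Of the 135 alternative values for the log2 fold changes, 129 kept their side of the threshold. Nts in CA1-like cells passed with no filter on low counts (0.41, edgeR adjusted p = 0.0446). Sst in CGE-like cells failed with DESeq2 (2.52), with the gate (0.59) and without 3 of the libraries in turn, the values without each library running from 0.92 to 3.65. Several small differences changed sign, among them Sst in MGE-like cells in 4 of 13 alternatives (-0.40 to 0.51) and Tac1 in 6 of 13 (-0.79 to 0.42).

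For the share of cells with a UMI (knockout minus wild type, percentage points), Sst in MGE-like cells gave 2.78 at 2 UMIs, 11.67 at the 5% mitochondrial limit and 11.83 with the gate. The genotypes overlapped at 2 UMIs and at the mitochondrial limit, where wild-type replicate 2 had 13.6% of 22 cells. The gate gave 8.85 for Npy and 1.24 for Cck, and leaving out each library -3.47 to 9.44 for Npy. Vip gave -6.01 at 5000 UMIs and 5.38 at the mitochondrial limit, Gal -0.214 at 2 UMIs and 5.27 at that limit, Grp 4.20 at that limit, and Adcyap1 4.24 unthinned, 1.67 at 5000 UMIs and -1.29 at that limit.

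For the level in vascular and immune cells as a percentage of the library-wide level, cells with fewer than 2 UMIs of neuronal reference genes gave 16.95% for Npy, 82.49% for Vip, 0% for Gal, 0% for Adcyap1, 6.635% for Grp and 212.5% for Tac1, from few UMIs. With doublets kept Adcyap1 gave 7.86% and Penk 18.53%. Depth limits Vip, Adcyap1 and Tac1 most, since their values rest on 478, 2041 and 1407 UMIs in all.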

Other observations

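Inhibitory cluster I13, a sub-cluster of the Meis2/Foxp2-type cells, held 33 cells, and 4 of them had at least 10 UMIs of Npy, up to 412 in a cell, with 4 also at 10 or more of Sst, up to 201 in a cell. The cells with high Npy came from wild-type replicate 2 (1 cell), wild-type replicate 3 (2) and knockout replicate 3 (1). The number of genes per cell at 10 or more UMIs also differed between classes: 62.5% of CA1-like cells held 1 of the 10 genes at that level and 10.1% at least 2, whereas 71.8% of MGE-like cells held none and 1.27% of CGE-like cells held at least 2.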
